A study of Mus musculus with 12 samples.

Results

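The DNA replication and nucleotide synthesis genes are a set of 39 genes, of 54345 in the table, whose products license and open replication origins, copy DNA at the fork and supply its building blocks. They were found by their gene names in a list put together from their known roles. All 39 were matched, and all 39 passed the filter on low values (FPKM above 0 in at least 3 libraries). Poly(A) RNA was sequenced from H9c2 cells, an immortalised cardiomyoblast line that the study describes as rat, after 6 h of treatment, in 12 libraries with 3 in each of 4 groups. The Unt group received no drug. The DOX group received doxorubicin, an anthracycline chemotherapy drug that damages heart muscle. The D_DXZ group received doxorubicin with dexrazoxane, the cardioprotective drug in clinical use, and the D_MgHCF group received doxorubicin with magnesium hexacyanoferrate nanocatalysts, particles that bind ferrous ions and break down reactive oxygen species. All groups share a wild-type line with no transgene, there was no group with DXZ or MgHCF alone, and the doses in the sequenced cells are not given in the sources used here. The labels name the organism as mouse and the table carries mouse genes, so each level depends on how well reads of a rat line were assigned to mouse genes. Nothing in the labels says that the 3 libraries of a group came from separate cultures, so the p-values measure only the spread between these libraries.

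A cell copies its DNA in S phase. Before that, the origin recognition complex, Cdc6 and Cdt1 load the MCM helicase onto origins, geminin (Gmnn) holds Cdt1 back from loading it again, and Cdc45, Mcm10 and the GINS complex switch the helicase on. Primase and the DNA polymerases then copy the strands on the sliding clamp Pcna, which the Rfc complex loads, while ribonucleotide reductase (Rrm1 with Rrm2), thymidylate synthase and thymidine kinase supply dNTPs. Many of these genes are under E2F transcription factors, and doxorubicin is a topoisomerase II poison that breaks DNA.

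RefSeq promoter windows of the mouse reference (GRCm38.p6, 250 bases before to 50 bases after the start) were matched for 32 of the 39 genes, in 38 windows. Gmnn, Mcm4, Gins1, Gins2, Prim2, Pole and Rfc2 were not matched. The E2F-like words TTTCCCGC, TTTCGCGC, TTTGCCGC and TTTGGCGC were searched on both strands, with overlapping matches counted, and stood in 13 of the 38 windows (34.2%) against 744 of all 32851 windows (2.26%). By role, they stood in 4 of 6 licensing genes, 4 of 5 MCM genes, 1 of 3 helicase activation genes and 2 of 5 polymerase and primase genes. They also stood in 1 of 5 clamp and clamp loader genes, 1 of 4 single-strand binding and Okazaki fragment genes and 0 of 4 dNTP synthesis genes. Only exact matches were counted, so a sequence that differs from these words by a base was missed. The 150 bases before the start are shown for Gins3 and Rfc3, which fell with DOX under every scaling of the libraries, for Orc1, which fell on the deposited scale but not with quantile normalization, for Mcm6 and Pola1, which rose with DOX on the deposited scale but not under every scaling, for Rpa1, which rose under every scaling, and for Rrm1, which fell most in D_MgHCF. No capitals stand in Rpa1 or Rrm1, whose windows hold no such word. The sequences run 5′ to 3′ on the strand of the gene, and capitals mark an E2F-like word or its reverse complement. They lie at chr4:108579304-108579453 (+) for Orc1, chr8:95633409-95633558 (+) for Gins3, chr5:151651209-151651358 (-) for Rfc3, chr1:128359706-128359855 (-) for Mcm6, chrX:93632156-93632305 (-) for Pola1, chr11:75348384-75348533 (-) for Rpa1 and chr7:102441545-102441694 (+) for Rrm1.
Orc1: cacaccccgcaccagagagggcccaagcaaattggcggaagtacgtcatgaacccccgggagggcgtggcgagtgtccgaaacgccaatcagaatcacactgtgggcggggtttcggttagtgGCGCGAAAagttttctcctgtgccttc
Gins3: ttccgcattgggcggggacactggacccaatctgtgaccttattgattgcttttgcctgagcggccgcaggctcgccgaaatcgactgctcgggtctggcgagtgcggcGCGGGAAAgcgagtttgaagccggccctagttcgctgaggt
Rfc3: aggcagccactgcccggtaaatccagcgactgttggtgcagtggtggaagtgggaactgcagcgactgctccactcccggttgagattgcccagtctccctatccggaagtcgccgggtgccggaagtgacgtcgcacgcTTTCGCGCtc
Mcm6: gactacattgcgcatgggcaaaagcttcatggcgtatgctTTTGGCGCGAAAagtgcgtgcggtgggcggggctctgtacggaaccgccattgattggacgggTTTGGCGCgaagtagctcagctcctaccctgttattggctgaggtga
Pola1: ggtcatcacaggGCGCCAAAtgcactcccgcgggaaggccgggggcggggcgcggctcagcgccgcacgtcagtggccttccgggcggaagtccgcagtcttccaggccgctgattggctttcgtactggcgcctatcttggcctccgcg
Rpa1: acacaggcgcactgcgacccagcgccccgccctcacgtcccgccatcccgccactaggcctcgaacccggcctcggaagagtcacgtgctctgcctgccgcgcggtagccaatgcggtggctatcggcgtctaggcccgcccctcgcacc
Rrm1: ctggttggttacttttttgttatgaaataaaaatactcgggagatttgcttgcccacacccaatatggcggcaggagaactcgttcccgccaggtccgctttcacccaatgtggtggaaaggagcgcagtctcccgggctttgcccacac

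A match to such a word is a description of the mouse reference and not a site shown to be bound, and the sequence of the rat cells was not read. Among the 13 genes with a word, 5 were higher and 5 were lower with DOX than in Unt on the deposited scale of the values. Among the 19 matched genes without one, 10 were higher and 4 were lower. Of all genes tested, 18.6% were higher and 19.9% were lower. These counts were not worked out for the other scalings described below, on which the direction of many rises depended. Other short promoter motifs were also frequent in these windows, with CCAAT in 60.5% against 37.4% of all windows and GGGCGG in 65.8% against 35.7%.

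The deposited values were FPKM, fragments per kilobase of gene and scaled for library size, and a change is given as the difference of log2(FPKM + 1) with its standard error (SE), which understates the change of low genes. Between 16626514 and 19365119 reads per library fell on genes, and the replication genes had from 59 reads (Gins3) to 10797 reads (Rpa1) in a library. The library size behind the FPKM, divided by the reads on genes, ranged over 1.32 to 1.38 for Unt, 0.647 to 0.784 for DOX, 0.747 to 0.892 for D_DXZ and 1.26 to 1.43 for D_MgHCF. Mitochondrial genes took 1.19 to 1.41% of reads in Unt libraries, 2.73 to 2.89% with DOX, 2.73 to 3.27% with D_DXZ and 1.76 to 3.16% with D_MgHCF. Genes with FPKM above 0 numbered 20160 to 20660 in Unt libraries and 18530 to 20381 with DOX. They numbered 19413 to 19662 with D_DXZ and 23368 to 25456 with D_MgHCF. The summed FPKM of 10 myoblast and heart markers ran from 494 to 604 in Unt libraries, 2358 to 3172 with DOX, 1923 to 2591 with D_DXZ and 329 to 609 with D_MgHCF, and the myogenic factors Myod1, Myf5 and Myog and the heart factor Nkx2-5 were listed at 0 in all 3 Unt libraries. Vim and Acta2 made up most of that sum (1042 ± 149 and 1831 ± 304 FPKM in DOX, SD, n = 3), while Gata4 went the other way, from 10.3 ± 0.584 FPKM in Unt to 3.35 ± 1.42 in DOX and 19.2 ± 5.76 in D_MgHCF, and Des was also lower with DOX. The 6 markers of endothelial, immune and epithelial cells summed to 0.926 to 1.17 FPKM in Unt libraries, 2.86 to 3.79 with DOX, 3.79 to 4.49 with D_DXZ and 2.29 to 6.35 with D_MgHCF, with 1 of 6 at a mean of at least 1 FPKM in each group, and Pecam1, Cd68 and Cdh1 were higher in D_MgHCF than in Unt under all 4 scalings described below. The part of these differences in the results below was not tested.

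With DOX, replication genes changed in both directions. Of the 39 genes, 18 were higher in DOX than in Unt and 10 were lower (limma, adjusted p under 0.05), where 18.6% of the 25044 genes tested were higher and 19.9% were lower. The median change of the 39 was 0.31 on the log2 scale, against 0 for all genes tested. The genes that fell were origin licensing and helicase activation factors and 2 clamp loader subunits, while MCM helicase, clamp, single-strand binding and dNTP enzyme genes rose on the deposited scale, a rise that of these 18 only Rpa1 showed under all 4 scalings. In bulk RNA, fewer cells of a type and less RNA per cell cannot be told apart. With doxorubicin and MgHCF together, 24 of the 39 genes were lower than in Unt and 2 were higher, where 15.7% of all genes tested were lower and 24.3% were higher. The median change of the 39 from Unt to D_MgHCF was -0.59.

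**Figure D1:**
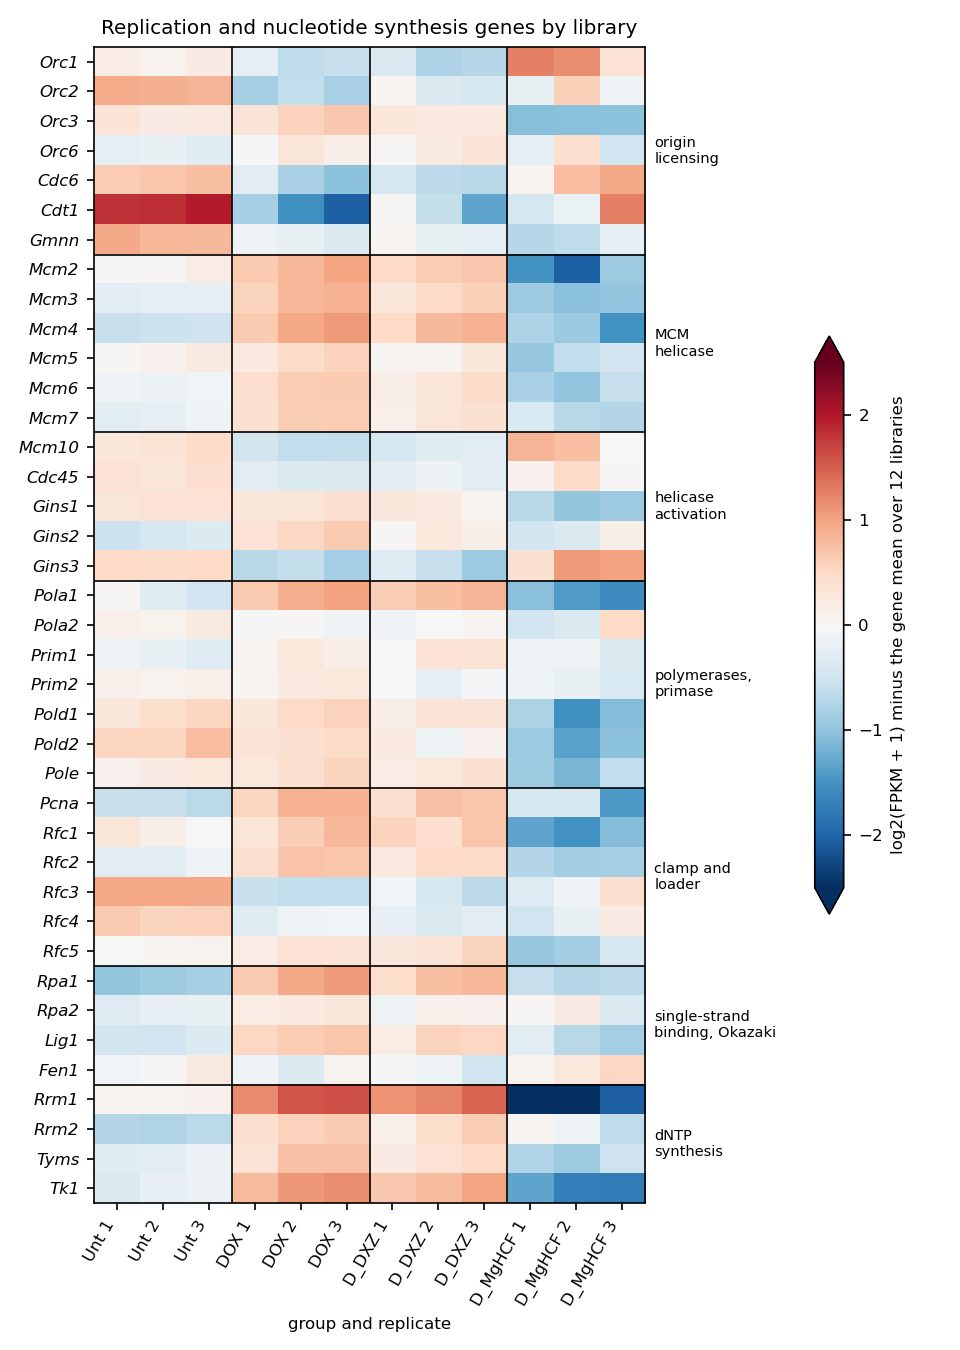
Each row is a gene and each column a library, grouped by treatment, and colour gives log2(FPKM + 1) minus the mean of that gene over the 12 libraries, on a scale that saturates at the ends of the bar. Values are on the deposited scale. Red is above and blue below the mean: Cdt1 is red in Unt and blue in DOX, and Rrm1 is the deepest blue in the 3 D_MgHCF libraries.

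The size of the rise with DOX depended on the scaling between libraries, and so did its direction for many genes. When the FPKM of each library were set to an equal sum, the median of the 12434 genes at FPKM of at least 1 moved by -1.01 from Unt to DOX, and 1 replication gene was higher and 30 were lower (4.39% and 40.1% of all genes). With rescaling to the same total of reads on genes, that median moved by -0.67, and 3 genes were higher and 25 were lower (8.28% and 33.1%). With quantile normalization, 6 were higher and 17 were lower (16.7% and 17.3%). Relative to the median of those 12434 genes, the 39 genes had a median of 0.28 on the deposited scale, 0.03 with equal FPKM totals, 0.08 with equal read totals and -0.31 with quantile normalization. Rpa1 was higher in DOX than in Unt under all 4 scalings, and Orc2, Cdc6, Cdt1, Gmnn, Mcm10, Cdc45, Gins3, Rfc3 and Rfc4 were lower under all 4.

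From DOX to D_MgHCF, 8 of the 39 genes were higher and 25 were lower on the deposited scale, where 31.4% and 20.1% of all genes were, with a median change of -1.11. With equal FPKM totals, where the median of the 12434 genes moved by 0.87, 17 were higher and 11 were lower (53.2% and 6.7% of all genes). With equal read totals, where it moved by 0.67, 16 were higher and 19 were lower (49.4% and 9.59%), and with quantile normalization 11 were higher and 17 were lower (18.5% and 19.6%). Relative to the median of the 12434 genes, the 39 genes had a median of -1.09 on the deposited scale and -0.78 with equal FPKM totals. It was -0.82 with equal read totals and -0.12 with quantile normalization. Under all 4 scalings, Orc1, Orc2, Cdc6, Cdt1, Mcm10, Cdc45 and Gins3 were higher in D_MgHCF than in DOX, and Orc3, Mcm2, Mcm3, Mcm4, Pola1, Pold1, Rfc1, Rfc2, Rpa1, Rrm1 and Tk1 were lower. The comparison of D_MgHCF with Unt moved little with the scaling, with 2 or 3 genes higher and 23 to 25 lower. Of these, 23 were lower under all 4. For this comparison the shares of all genes were 24.3% and 15.7% on the deposited scale. They were not worked out for the 3 other scalings or for calls under all 4.

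**Figure D2:**
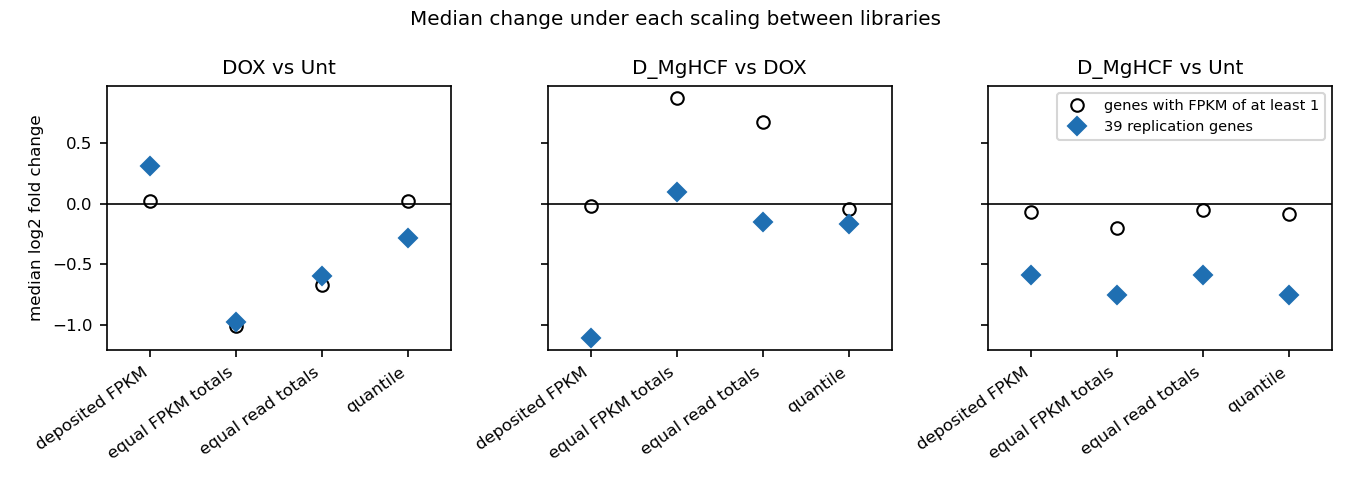
The vertical axis is the median log2 fold change of the 39 replication genes (blue diamonds) and of the 12434 genes at FPKM of at least 1 (open circles), and the horizontal axis is the scaling, for 3 comparisons. The medians for DOX against Unt fall below 0 with equal FPKM or read totals, those of D_MgHCF against DOX rise, and those of D_MgHCF against Unt stay between -0.75 and -0.06.

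In origin licensing, 5 of the 7 genes fell with DOX on the deposited scale and none rose (19.9% and 18.6% of all genes). Of these 5, 4 fell under all 4 scalings, while Orc3 rose with quantile normalization. Cdt1, the factor that brings the MCM helicase to origins, was at 48.2, 49.3 and 54.3 FPKM in Unt, 6.92, 3.82 and 2.40 in DOX, 13.2, 8.29 and 4.65 in D_DXZ and 9.34, 11.6 and 32.4 in D_MgHCF. Every DOX and D_DXZ library was below every Unt library, and D_MgHCF replicate 3 stood well above the other two of its group. Cdt1 fell by 3.35 (SE 0.47, adjusted p = 0.000216) from Unt to DOX, the largest fall of the 39 genes. From DOX to D_MgHCF it rose by 1.69 (SE 0.47, adjusted p = 0.0123), and by 1.17 (adjusted p = 0.0263) without D_MgHCF replicate 3, while the call was lost without DOX replicate 3 (1.40, adjusted p = 0.0517). Cdt1 in D_MgHCF was still lower than in Unt (-1.66, adjusted p = 0.0185), a call that was lost without Unt replicate 3 (adjusted p = 0.0537), D_MgHCF replicate 1 (0.0636) or D_MgHCF replicate 2 (0.0639). Orc2, a core subunit of the origin recognition complex, fell by 1.63 (SE 0.20) with DOX. Cdc6, the loading ATPase, fell by 1.41 (SE 0.23). Gmnn, the inhibitor of Cdt1, fell by 1.10 (SE 0.13), and Orc1, the ATPase subunit of the complex, by 0.64 (SE 0.23, adjusted p = 0.048), a fall that did not pass the test with quantile normalization (-0.17).

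Orc3, another core subunit of the origin recognition complex, behaved otherwise. It was at 8.36, 7.52 and 7.75 FPKM in Unt, 8.23, 9.95 and 10.7 in DOX, 7.96, 7.67 and 7.74 in D_DXZ and 2.53, 2.55 and 2.64 in D_MgHCF. The D_MgHCF libraries were the lowest by a wide margin and close to each other, and the Unt and DOX libraries overlapped. From DOX to D_MgHCF, Orc3 fell by 1.57 (SE 0.10, adjusted p = 3.06e-06), while Orc1 rose by 1.41 (SE 0.23), Cdc6 by 1.31 (SE 0.23) and Orc2 by 0.84 (SE 0.20). Orc3 did not pass the test from Unt to DOX (0.25, adjusted p = 0.0643), passed it as a rise without DOX replicate 1 (0.35, adjusted p = 0.0101) or without D_MgHCF replicate 3 (0.25, adjusted p = 0.0483), and turned to a fall with equal FPKM totals (-0.98) or equal read totals (-0.60). Orc1 was at 4.54, 4.21 and 4.63 FPKM in Unt and 10.7, 9.98 and 5.28 in D_MgHCF, so that the groups did not overlap, and rose by 0.77 (SE 0.23, adjusted p = 0.0221). Orc6, the smallest subunit, passed the test in no comparison and was at 31.8 ± 1.33 FPKM (SD, n = 3) in Unt and 42.0 ± 4.95 in DOX.

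The 6 MCM genes, the subunits of the ring that unwinds DNA, changed in the same direction on the deposited scale, with Mcm2 falling the most in D_MgHCF. On the deposited scale 5 rose from Unt to DOX (18.6% of all genes), by 0.67 to 1.43, with Mcm5 at 0.31 (adjusted p = 0.111). All 6 fell from DOX to D_MgHCF (20.1% of all genes), by 1.11 to 2.31. All 6 were lower in D_MgHCF than in Unt (15.7% of all genes), by 0.40 to 1.55. The fall below Unt held for all 6 under all 4 scalings, the fall from DOX for Mcm2, Mcm3 and Mcm4, and the rise with DOX for none. Mcm2 was at 46.3, 48.0 and 53.9 FPKM in Unt, 74.4, 84.4 and 94.5 in DOX, 67.0, 73.9 and 76.1 in D_DXZ and 16.0, 10.7 and 24.5 in D_MgHCF. The 3 groups other than D_DXZ did not overlap, and D_MgHCF was lowest. Mcm2 rose by 0.76 (SE 0.23, adjusted p = 0.022) with DOX, a call lost without Unt replicate 1 (adjusted p = 0.0681), Unt replicate 2 (0.0617), DOX replicate 2 (0.057) or DOX replicate 3 (0.0789), and it changed by -0.59, -0.18 and -0.45 with equal FPKM totals, equal read totals and quantile normalization. From DOX to D_MgHCF Mcm2 fell by 2.31 (SE 0.23, adjusted p = 2.3e-05), and from Unt to D_MgHCF by 1.55 (SE 0.23, adjusted p = 0.000583).

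Mcm4 had the largest rise of the 6 with DOX. It was at 74.9, 76.8 and 77.4 FPKM in Unt, 175, 218 and 234 in DOX, 157, 197 and 204 in D_DXZ and 65.1, 58.3 and 38.5 in D_MgHCF. All DOX and D_DXZ libraries were above all Unt libraries, and all D_MgHCF libraries were below them. Mcm4 rose by 1.43 (SE 0.19, adjusted p = 0.000154) with DOX, which became 0.07 with equal FPKM totals and -0.08 with quantile normalization. The difference of Mcm4 between D_MgHCF and Unt was small (-0.53, adjusted p = 0.0493) and was lost without any of the 3 Unt libraries, without DOX replicate 2 or 3, D_DXZ replicate 2 or 3, or D_MgHCF replicate 2 or 3 (adjusted p from 0.0578 to 0.11).

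The helicase activation factors split within the GINS complex. Gins3 was at 6.25, 6.12 and 6.28 FPKM in Unt, 2.19, 2.42 and 1.88 in DOX, 3.16, 2.48 and 1.74 in D_DXZ and 5.76, 9.86 and 9.40 in D_MgHCF. The DOX and D_DXZ libraries were below all Unt libraries, and the D_MgHCF libraries overlapped with Unt. Gins3 fell by 1.19 (SE 0.20, adjusted p = 0.000617) with DOX and rose by 1.53 (SE 0.20, adjusted p = 0.000109) from DOX to D_MgHCF.

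Gins2 was at 16.0, 17.4 and 18.5 FPKM in Unt, 30.6, 34.5 and 37.6 in DOX, 24.1, 28.7 and 26.4 in D_DXZ and 17.0, 18.3 and 26.1 in D_MgHCF. It was highest in DOX and did not overlap with Unt there. Gins2 rose by 0.94 (SE 0.15, adjusted p = 0.00047) with DOX and fell by 0.73 (SE 0.15, adjusted p = 0.0021) from DOX to D_MgHCF, and both signs turned with equal FPKM totals (-0.37 and 0.44).

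Gins1 was at 15.2, 15.9 and 15.9 FPKM in Unt, 15.0, 15.3 and 16.4 in DOX, 15.0, 14.7 and 12.8 in D_DXZ and 7.19, 5.62 and 6.02 in D_MgHCF. Unt and DOX overlapped, and the D_MgHCF libraries were lowest. Gins1 fell by 1.19 (SE 0.10, adjusted p = 7.85e-06) from DOX to D_MgHCF, but by 0.09 with equal FPKM totals (adjusted p = 0.552). The subunits of this complex thus differed in pattern, with Gins3 low in DOX, Gins2 high in DOX on the deposited scale and Gins1 low in D_MgHCF. Cdc45, the partner of the helicase at the moving fork, fell by 0.69 (SE 0.11) with DOX and rose by 0.53 (SE 0.11) from DOX to D_MgHCF. Mcm10, a firing factor, fell by 0.92 (SE 0.19) and rose by 1.09 (SE 0.19).

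Among the 7 genes of DNA polymerases and primase, Pola1 and Prim1 were higher in DOX than in Unt on the deposited scale. No gene was lower, where 18.6% of all genes were higher and 19.9% were lower. Pola1, the catalytic subunit of polymerase alpha, was at 15.9, 12.4 and 10.8 FPKM in Unt, 25.0, 29.8 and 32.0 in DOX, 24.1, 26.8 and 28.5 in D_DXZ and 6.99, 5.15 and 4.49 in D_MgHCF. All DOX libraries were above and all D_MgHCF libraries below all Unt libraries. Pola1 rose by 1.10 (SE 0.17, adjusted p = 0.000367) with DOX, turned to -0.20 with equal FPKM totals, and fell by 2.20 (SE 0.17, adjusted p = 6.51e-06) from DOX to D_MgHCF. Pola2, the accessory subunit of the same enzyme, passed the test in no comparison and was at 44.1 ± 2.39 FPKM (SD, n = 3) in Unt, 38.9 ± 1.58 in DOX and 28.2, 30.5 and 56.1 in the 3 D_MgHCF libraries. The catalytic and accessory subunits of polymerase delta, Pold1 and Pold2, fell by 1.58 (SE 0.17) and 1.48 (SE 0.13) from DOX to D_MgHCF on the deposited scale, Pold1 under all 4 scalings. There, Pole, the catalytic subunit of polymerase epsilon, fell by 1.30 (SE 0.13), and the primase subunits Prim1 and Prim2 by 0.37 (SE 0.12) and 0.42 (SE 0.10), none of the 3 under all 4 scalings. With equal FPKM totals, 3 of the 7 genes were higher and 2 lower from DOX to D_MgHCF (53.2% and 6.7% of all genes). With equal read totals 3 were higher and 4 lower (49.4% and 9.59%). Prim1 and Prim2 were among the higher under both. With quantile normalization 2 were higher and 5 lower (18.5% and 19.6%). Below Unt in D_MgHCF were Pold2, Pold1, Pola1, Pole and Prim2, the first 4 of them under all 4 scalings.

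Pcna, the sliding clamp, had the highest mean level of the 39 genes in all 4 groups. It was at 116, 116 and 107 FPKM in Unt, 248, 314 and 312 in DOX, 225, 286 and 276 in D_DXZ and 127, 129 and 63.0 in D_MgHCF. The DOX and D_DXZ libraries were above all others, and D_MgHCF replicate 3 was below every other library. Pcna rose by 1.35 (SE 0.25, adjusted p = 0.00117) with DOX, which became -0.01 with equal FPKM totals and -0.27 with quantile normalization, and fell by 1.51 (SE 0.25, adjusted p = 0.000509) from DOX to D_MgHCF. The change was -1.17 without D_MgHCF replicate 3 and did not pass the test with equal FPKM totals (-0.30, adjusted p = 0.172) or quantile normalization (-0.08, adjusted p = 0.807). A second copy in the mouse genome, Pcna-ps2, is 99.2% identical to it over 781 bases, so its reads could be split. Cdc6, Mcm6, Mcm7, Rfc5, Rrm2, Tyms and Tk1 also have copies that match in 95% or more of 150 or more bases, and their levels are uncertain for the same reason.

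The 5 Rfc genes, subunits of the clamp loader, did not move as a group with DOX. Rfc1, the large subunit, was at 23.8, 21.2 and 19.2 FPKM in Unt, 23.7, 29.7 and 34.6 in DOX, 28.3, 25.9 and 31.4 in D_DXZ and 6.95, 6.00 and 8.36 in D_MgHCF. Unt and DOX overlapped, and D_MgHCF was far below both. The rise of Rfc1 with DOX (0.43, adjusted p = 0.0481) was lost without Unt replicate 2 or 3, DOX replicate 2 or 3, any of the 3 D_DXZ libraries or D_MgHCF replicate 1 (adjusted p from 0.0547 to 0.184), and its sign turned under all 3 other scalings. From DOX to D_MgHCF Rfc1 fell by 1.90 (SE 0.15, adjusted p = 7.95e-06). Rfc3, a small subunit, was at 16.3, 16.3 and 16.0 FPKM in Unt, 5.04, 4.79 and 4.74 in DOX, 7.43, 5.73 and 4.62 in D_DXZ and 6.09, 7.28 and 10.6 in D_MgHCF. Every library of the 3 treated groups was below every Unt library. Rfc3 fell by 1.56 (SE 0.18, adjusted p = 6.82e-05) with DOX and rose by 0.59 (SE 0.18, adjusted p = 0.0204) from DOX to D_MgHCF, a call lost without DOX replicate 2 (adjusted p = 0.0534) or DOX replicate 3 (0.056), and with quantile normalization (0.41, adjusted p = 0.105). Rfc4 fell by 0.76 (SE 0.15) with DOX and Rfc2 rose by 0.82 (SE 0.11) on the deposited scale, while Rfc5 did not pass the test (0.25, adjusted p = 0.212). All 5 Rfc genes were lower in D_MgHCF than in Unt, by 0.59 to 1.47, under all 4 scalings.

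Rpa1, the large subunit of the single-strand binding protein, had the largest rise of the 39 genes with DOX. It was at 38.4, 41.3 and 43.1 FPKM in Unt, 122, 151 and 163 in DOX, 106, 130 and 138 in D_DXZ and 51.3, 46.7 and 49.0 in D_MgHCF. The DOX and D_DXZ libraries were well above the others, and the D_MgHCF libraries were just above the Unt libraries. Rpa1 rose by 1.79 (SE 0.13, adjusted p = 1.09e-05) with DOX, and by 0.45, 0.86 and 0.54 with equal FPKM totals, equal read totals and quantile normalization. It fell by 1.54 (SE 0.13, adjusted p = 8.87e-06) from DOX to D_MgHCF. Rpa2, the middle subunit, rose by 0.47 (SE 0.13) with DOX, on the deposited scale only, and so did Lig1, the ligase that seals Okazaki fragments, by 1.04 (SE 0.14). Fen1, the flap nuclease that trims them, was at 5.54 ± 0.724 FPKM (SD, n = 3) in Unt and 4.79 ± 0.84 in DOX (-0.18, adjusted p = 0.513), and overlaps Tmem258, which reached 74.0 FPKM. In all, 20 of the 39 genes overlap another gene, and whether strand was used in counting is not given in the sources used here. None of the 4 single-strand binding and Okazaki fragment genes passed the test between D_MgHCF and Unt on the deposited scale. With equal FPKM totals 1 was lower, and with equal read totals or quantile normalization 1 was higher.

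The 4 dNTP synthesis genes rose with DOX on the deposited scale (18.6% of all genes), by 0.84 (Tyms, thymidylate synthase) to 1.38 (Rrm1). None of them passed the test as a rise under all 4 scalings. Rrm1, the large subunit of ribonucleotide reductase, had the largest change of the 39 genes in the D_MgHCF libraries. It was at 25.7, 25.9 and 26.8 FPKM in Unt, 57.5, 75.7 and 77.7 in DOX, 55.3, 59.4 and 69.8 in D_DXZ and 2.10, 1.62 and 5.14 in D_MgHCF. No library of D_MgHCF came near any library of another group. Rrm1 rose by 1.38 (SE 0.26, adjusted p = 0.00164) with DOX, and by 0.05, 0.45 and 0.45 with equal FPKM totals, equal read totals and quantile normalization, none of which passed the test. From DOX to D_MgHCF Rrm1 fell by 4.26 (SE 0.26, adjusted p = 3.06e-06), with a range from -4.26 to -3.21 over the 4 scalings, and from Unt to D_MgHCF by 2.88 (SE 0.26, adjusted p = 5.02e-05), or by 3.25 without D_MgHCF replicate 3.

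Rrm2, the small subunit of the same enzyme, was at 42.6, 41.8 and 44.0 FPKM in Unt, 95.1, 106 and 112 in DOX, 77.2, 97.0 and 110 in D_DXZ and 73.1, 66.8 and 45.5 in D_MgHCF. The D_MgHCF libraries were above all Unt libraries, although replicate 3 only just. Rrm2 was thus higher in D_MgHCF than in Unt (0.49, SE 0.18, adjusted p = 0.0468), and with Orc1 it made up the 2 genes that were. Neither of the 2 was called without Unt replicate 1, 2 or 3 or without D_MgHCF replicate 2, and 4 genes were higher without D_MgHCF replicate 3. Tk1, the S-phase thymidine kinase, fell by 2.61 (SE 0.14) from DOX to D_MgHCF and by 1.35 (SE 0.14) from Unt to D_MgHCF, and Tyms by 1.32 (SE 0.13) and 0.48 (SE 0.13). Both falls of Tk1, and that of Tyms from Unt, passed the test under all 4 scalings.

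**Figure D3:**
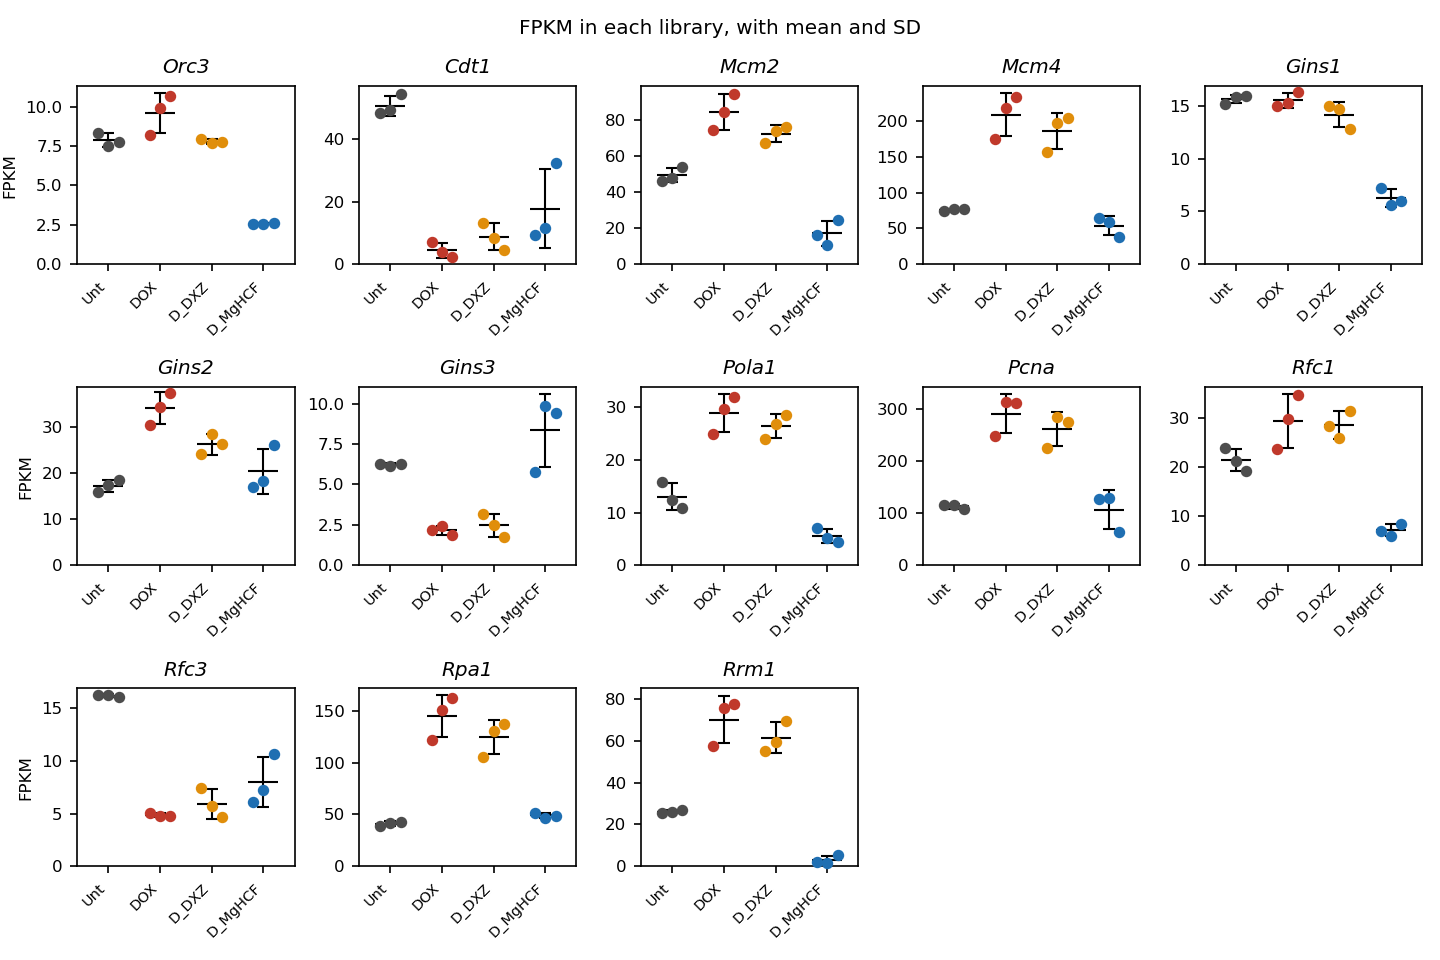
Each point is the FPKM of a gene in 1 library, for 13 of the 39 replication genes, with the group mean (bar) and SD (whiskers), n = 3 libraries a group. Rrm1 is near 0 in D_MgHCF (1.62 to 5.14), Cdt1 is low in DOX (2.40 to 6.92), and DOX and D_DXZ points lie close together in most panels; rises from Unt to DOX depend on the scaling for all of these but Rpa1.

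**Figure D4:**
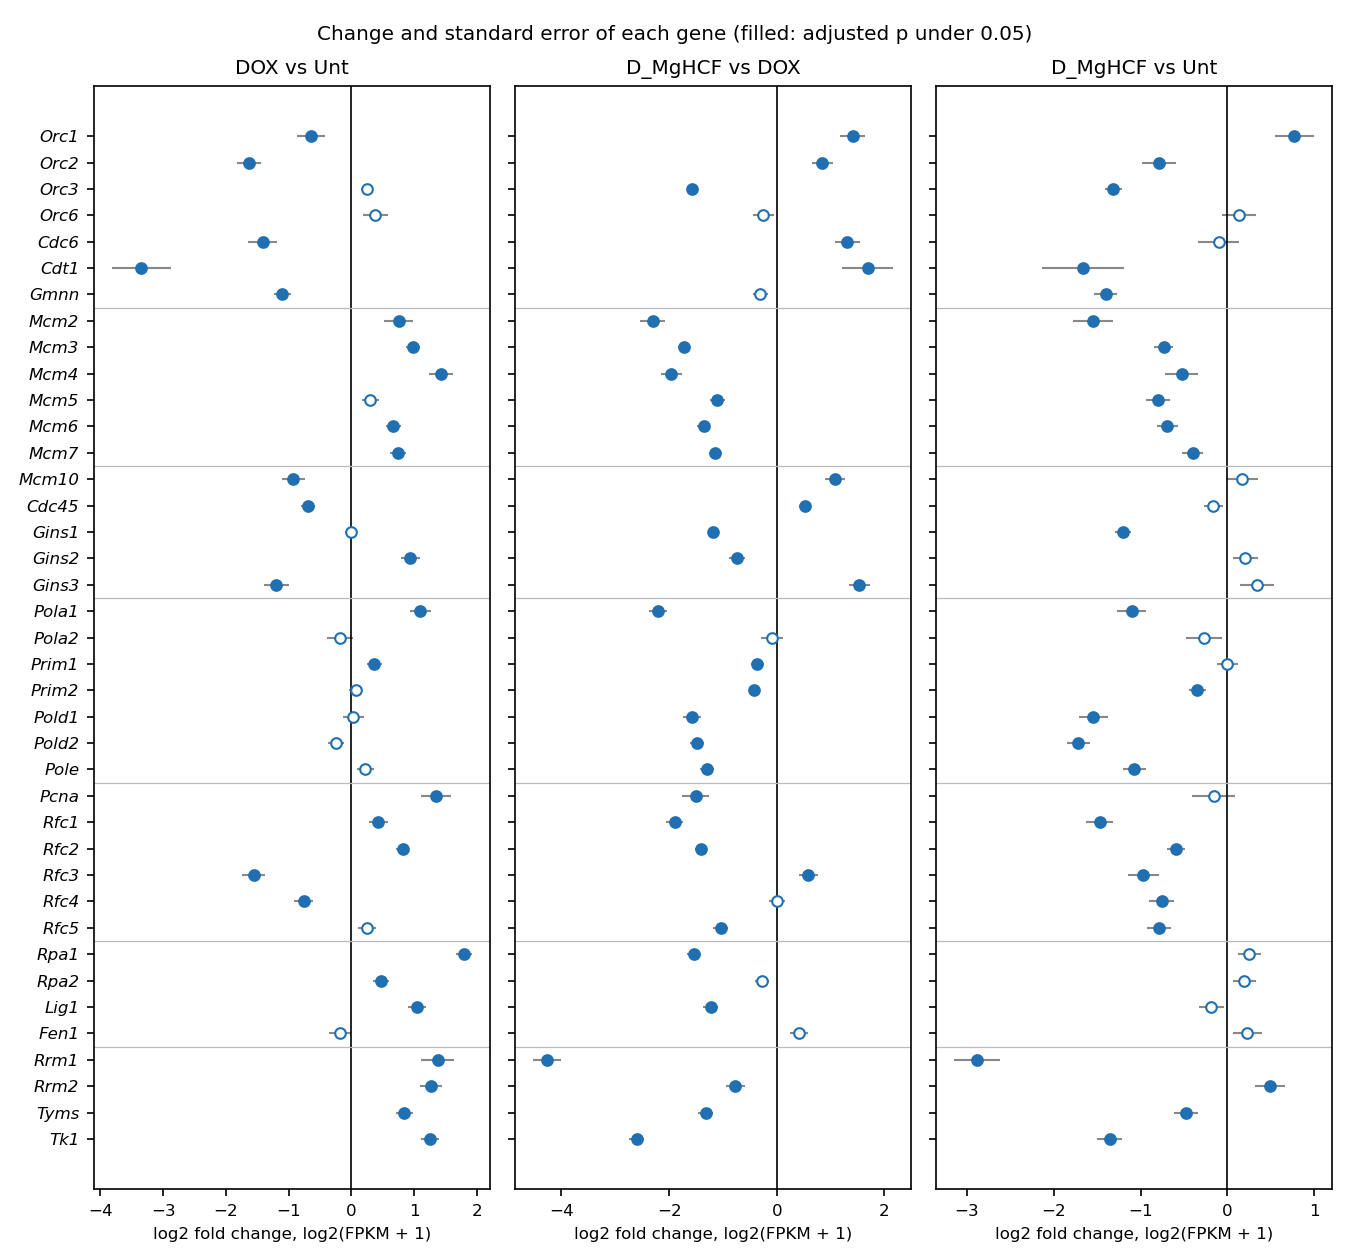
The horizontal axis is the log2 fold change of log2(FPKM + 1) on the deposited scale with its SE, the rows are the 39 genes by role, and filled points have an adjusted p under 0.05. Of the 7 licensing genes, 5 have filled points left of 0 with DOX (19.9% of all genes), while Orc3 and Orc6 lie right of it. From DOX to D_MgHCF, 4 of the 7 have filled points right of 0 (31.4% of all genes). For D_MgHCF against Unt, 24 filled points lie left of 0 (15.7% of all genes). With equal FPKM totals, 30 points pass the test left of 0 in the first panel (40.1% of all genes).

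Ratios of 2 genes within a library do not depend on a scaling that multiplies the whole library by a constant. Quantile normalization is not such a scaling and can change them, and the ratios below are of deposited FPKM. The following were chosen after the values were seen and are given as a description, with no test. The ratio of Rrm1 to Rrm2 FPKM was 0.602 to 0.621 for Unt, 0.605 to 0.717 for DOX and 0.612 to 0.716 for D_DXZ, and 0.0287, 0.0242 and 0.113 in D_MgHCF. The 3 groups without MgHCF overlapped or nearly so, and the D_MgHCF libraries were all far below. The ratio of Cdt1 to Gmnn was 1.70 to 2.12 for Unt, 0.223 to 0.536 for DOX, 0.389 to 0.886 for D_DXZ and 1.14, 1.33 and 2.75 in D_MgHCF. Here DOX and D_DXZ were below Unt, and D_MgHCF spanned the Unt range. The ratio of Mcm2 to the mean of Mcm3 to Mcm7 was 0.633 to 0.689 for Unt, 0.583 to 0.625 for DOX, 0.594 to 0.646 for D_DXZ and 0.224 to 0.515 for D_MgHCF. That of Pola1 to Pola2 was 0.231 to 0.363 for Unt, 0.644 to 0.858 for DOX, 0.649 to 0.681 for D_DXZ and 0.0800 to 0.248 for D_MgHCF. The MCM ratio was lowest in D_MgHCF, and the polymerase alpha ratio was highest in DOX and D_DXZ.

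**Figure D5:**
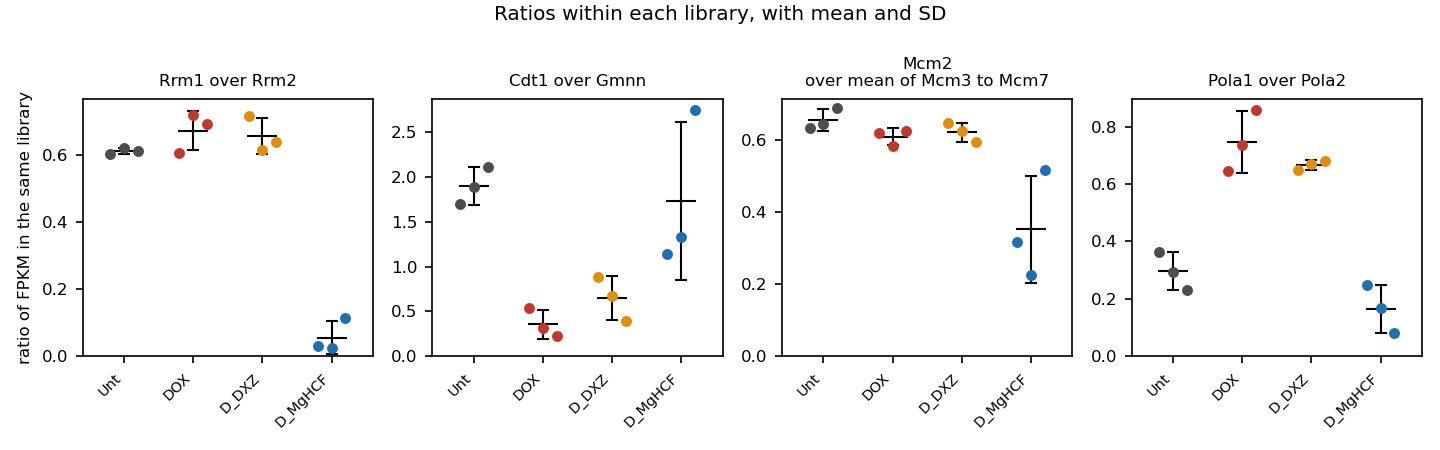
Each point is the ratio of 2 FPKM values of the same library, with the group mean (bar) and SD (whiskers), n = 3 libraries a group. Rrm1 over Rrm2 is close to 0.6 to 0.7 in the 9 libraries without MgHCF and at most 0.113 with it, and Cdt1 over Gmnn is below 1 in every DOX and D_DXZ library.

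No replication gene passed the test between DOX and D_DXZ. From DOX to D_DXZ, 0 of the 39 were higher and 0 were lower (limma, adjusted p under 0.05), as were 0% of all genes tested in either direction. At an unadjusted p under 0.05, 1 gene (Orc2, 0.52) was higher and 6 (Gins2, Pold2, Mcm3, Mcm7, Prim2 and Orc3, from -0.36 to -0.27) were lower, where 4.56% and 4.97% of all genes were. The median change of the 39 was -0.15. A missed threshold does not show that the 2 groups were alike, as the 95% intervals of single genes reached from -0.77 to 1.89, the latter for Cdt1. Against Unt on the deposited scale, D_DXZ had 15 genes higher and 11 lower, where 15.9% and 18% of all genes were. There were 1 and 31 with equal FPKM totals (3.66% and 39.6% of all genes). With equal read totals there were 3 and 23, for which the shares of all genes were not worked out. Both D_DXZ and DOX were compared with the same Unt libraries. From D_DXZ to D_MgHCF, 6 genes were higher and 24 were lower (29.4% and 19% of all genes), with Rrm1 at -4.08 (SE 0.26) and Orc1 at 1.55 (SE 0.23). With equal FPKM totals these 2 counts became 18 and 11, where 50.5% and 6.14% of all genes were.

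The other genes of replication and of nucleotide synthesis were described from 3 further lists of known members. Their counts are given for DOX against Unt and D_MgHCF against DOX, on the deposited scale and with equal FPKM totals. Each stands beside the shares of all genes. No such share was worked out for calls under all 4 scalings. Of 30 other fork and origin factors, 8 were higher and 12 were lower with DOX than in Unt on the deposited scale (18.6% and 19.9% of all genes). From DOX to D_MgHCF the counts were 3 higher and 11 lower (31.4% and 20.1%). With equal FPKM totals these counts became 1 and 24 (4.39% and 40.1% of all genes), and 19 and 3 (53.2% and 6.7%). Under all 4 scalings 1 was higher and 9 were lower with DOX. Rpa3, the small subunit of the single-strand binding protein, rose by 1.98 (SE 0.28) with DOX and fell by 1.77 (SE 0.28) to D_MgHCF, both under all 4 scalings. Ticrr, a factor of helicase activation, was at 5.01, 4.80 and 5.21 FPKM in Unt, 1.18, 0.709 and 0.691 in DOX, 1.75, 0.984 and 0.973 in D_DXZ and 4.42, 4.70 and 4.59 in D_MgHCF. It was low in DOX and D_DXZ, which overlapped with each other but not with Unt or D_MgHCF, and rose by 1.59 (SE 0.16, adjusted p = 2.42e-05) from DOX to D_MgHCF. Chaf1a, a histone chaperone at the fork, fell by 2.14 (SE 0.53) with DOX and was at 8.99, 19.7 and 62.7 FPKM in the 3 D_MgHCF libraries.

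Of 28 other nucleotide synthesis enzymes, 19 were higher and 3 were lower with DOX on the deposited scale (18.6% and 19.9% of all genes), with a median change of 0.93. From DOX to D_MgHCF, 3 were higher and 21 were lower (31.4% and 20.1%), with a median of -1.36. With equal FPKM totals they became 4 and 13 with DOX (4.39% and 40.1%), and 7 and 13 from DOX to D_MgHCF (53.2% and 6.7%). Under all 4 scalings 12 fell from DOX to D_MgHCF. Hprt, the purine salvage enzyme, was at 58.5, 57.4 and 57.6 FPKM in Unt, 201, 250 and 240 in DOX, 158, 197 and 206 in D_DXZ and 46.3, 39.5 and 55.2 in D_MgHCF. It was high in DOX and D_DXZ, which overlapped with each other but not with Unt or D_MgHCF, and rose with DOX under all 4 scalings, by 0.51 to 1.97. Atic, of purine synthesis, fell by 2.48 (SE 0.11, adjusted p = 2.13e-06) from DOX to D_MgHCF and by 1.30 (SE 0.11) from Unt to D_MgHCF. Ppat, the entry enzyme of purine synthesis, moved the other way, down by 1.14 (SE 0.15) with DOX and up by 0.72 (SE 0.15) to D_MgHCF.

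Of 13 genes of the E2F and retinoblastoma family, 1 was higher and 8 were lower with DOX on the deposited scale (18.6% and 19.9% of all genes), and 6 were higher and 2 were lower from DOX to D_MgHCF (31.4% and 20.1%). They became 0 and 12, and 11 and 1, with equal FPKM totals (4.39% and 40.1%, and 53.2% and 6.7% of all genes). Under all 4 scalings, 5 (E2f3, E2f4, E2f7, E2f8 and Rbl1) were lower with DOX, and 4 (E2f2, E2f3, E2f7 and E2f8) were higher and 1 (Tfdp1) was lower from DOX to D_MgHCF. E2f8, a repressor of the family, was at 6.73, 6.42 and 7.12 FPKM in Unt, 1.56, 0.859 and 0.905 in DOX, 2.49, 1.50 and 1.57 in D_DXZ and 5.49, 5.17 and 5.94 in D_MgHCF. Its DOX and D_DXZ libraries were far below the others, and it rose by 1.65 (SE 0.16, adjusted p = 2.43e-05) from DOX to D_MgHCF. Tfdp1, the partner that E2F proteins bind DNA with, was at 58.9, 60.8 and 60.7 FPKM in Unt, 137, 175 and 187 in DOX, 137, 152 and 176 in D_DXZ and 29.2, 27.0 and 42.4 in D_MgHCF. It was lowest in D_MgHCF, and fell by 2.32 (SE 0.17, adjusted p = 5.88e-06) from DOX to D_MgHCF.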

How the data were processed

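Poly(A) RNA of 12 libraries, 3 in each of 4 groups, was sequenced as paired ends. Per the labels and the submitters' processing notes, reads were aligned with HISAT2 2.0.5 to GRCm38 (mm10). The counting program and the annotation release are not given in the sources used here. The deposited values are FPKM, which the authors scaled by gene length and library size. The FPKM stepped in whole reads (tolerance 0.05 reads) for 100% of values in each library, so read numbers were recovered and between 16626514 and 19365119 reads per library fell on genes. The number of libraries and these depths limit precision.

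The 25044 genes detected (FPKM above 0) in 3 or more libraries were tested on log2(FPKM + 1), with a pseudocount of 1, in 1 limma fit over the 4 groups with a mean-variance trend (limma 3.58.1, R 4.3.3), and p-values were adjusted by Benjamini-Hochberg over all of them. The threshold was an adjusted p of 0.05, two-sided, and the fit was tested on simulated data. Groups came from the labels. The alternatives comprised 0.1 as the pseudocount, a minimum FPKM of 1 in 3 or more libraries, no filter, fits of only the groups compared or with the replicate number, 3 other scalings, voom on the recovered reads, other call rules and leaving out each library. Fold changes were computed here, and no comparison made by the authors was used.

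The 39 genes and the further lists were chosen with earlier results of these data known, so no list is independent evidence. Values in every library were given for Rrm1 and Mcm2 and, in each role, for the genes with the largest rise and the largest fall among those past the threshold in DOX against Unt and in D_MgHCF against DOX, and examples from the further lists by the same rule. Orc1, Rrm2, Pola2 and the members of short counts were named after their values were seen. Copies were sought with BLAST 2.17.0, and promoters come from RefSeq (GRCm38.p6).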

Additional observations from a re-analysis of the deposited data

How the results depend on the processing

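The counts of replication genes past the threshold depended mainly on the scaling between libraries, and the cause was not tested. With equal FPKM totals they were, as higher and lower, 1 and 30 for DOX against Unt (4.39% and 40.1% of all genes). They were 1 and 31 for D_DXZ against Unt (3.66% and 39.6%) and 17 and 11 for D_MgHCF against DOX (53.2% and 6.7%). For D_MgHCF against D_DXZ they were 18 and 11 (50.5% and 6.14%). With equal read totals they were 3 and 25 for DOX against Unt (8.28% and 33.1%) and 3 and 23 for D_DXZ against Unt. On that scale D_MgHCF had 16 genes higher against DOX (49.4%) and 14 against D_DXZ. With quantile normalization they were 6 and 17 for DOX against Unt (16.7% and 17.3%), and 4 were higher in D_DXZ than in Unt. Where a count under an alternative stands without a share here, that share was not worked out. From Unt to DOX, the sign turned with equal FPKM totals for 15 of the replication genes called on the deposited scale. It turned for 8 with equal read totals and for 9 with quantile normalization. Values follow only for the genes with the largest rise or fall in their role, which include Orc3, not called from Unt to DOX. Of these, the signs turned with equal FPKM totals for Orc3 (-0.98), Mcm2 (-0.59), Gins2 (-0.37), Pola1 (-0.20), Pcna (-0.01) and Rfc1 (-0.89). With equal read totals they turned for Orc3 (-0.60), Mcm2 (-0.18) and Rfc1 (-0.49). With quantile normalization they turned for Mcm2 (-0.45), Mcm4 (-0.08), Pcna (-0.27) and Rfc1 (-0.18). From DOX to D_MgHCF, the sign turned for 7 of the called replication genes with equal FPKM totals. It turned for 4 with equal read totals and for 4 with quantile normalization. Of the genes with the largest rise or fall in their role, only Gins2 turned, with equal FPKM totals (0.44) and equal read totals (0.20). A further demand of a 2-fold change left 8 and 6 genes for DOX against Unt, 6 and 5 for D_DXZ against Unt, 0 and 12 for D_MgHCF against Unt, and 5 and 3 higher in D_MgHCF than in DOX and D_DXZ. The 2 genes higher in D_MgHCF than in Unt became 0 without a filter and with only the 2 groups in the fit, and 0 to 4 when 1 library was left out. At an unadjusted p, 1 gene was higher and 6 were lower in D_DXZ than in DOX. Deviations from the group mean correlated from -0.39 to 0.39 between same-numbered libraries, over 0.1 in 2 of 18 pairs. Between libraries of different numbers they correlated from -0.40 to 0.31, over 0.1 in 8 of 36 pairs. In all, 6 of 12 libraries matched best with their own number. Deviations from a mean of 3 libraries depend on each other, so whether the numbers pair the libraries cannot be told from this. With the replicate number as a block, 1 gene was higher and 23 were lower in D_MgHCF than in Unt, and the counts were 18 and 10 for DOX against Unt and 8 and 25 for D_MgHCF against DOX. Gins3, at 59 reads in its lowest library, had the least depth of the 39 genes.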
